A study of Mus musculus with 41 samples.

Results

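Regulatory T cells (Treg cells) hold other immune cells in check, and the transcription factor Foxp3 defines them. Uhrf1 reads half-methylated CG sites behind the replication fork and brings in the maintenance methyltransferase Dnmt1, so that DNA methylation is passed on at cell division. Treg cells that lose Foxp3 after having expressed it are known as ex-Foxp3 cells, and the labeled cells that keep it are their point of comparison within the same kind of mouse. The comparison made here asks how the change in RNA on loss of Foxp3 differed between mice with and without floxed Uhrf1, and how far both changes agreed gene by gene. It is the difference between ex-Foxp3 and labeled cells in Uhrf1 fl/fl mice, minus the same difference in Uhrf1 +/+ control mice. By population and genotype in the labels, 22 of the 41 libraries of the series belong to it.

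The 6 ex-Foxp3 and 6 labeled libraries of the fl/fl arm came from Uhrf1 fl/fl mice, and the 5 ex-Foxp3 and 5 labeled libraries of the control arm from Uhrf1 +/+ mice. All of these mice also carried Foxp3 GFP-CreERT2 and Rosa26 Sor CAG-tdTomato. The first allele makes a green reporter and a tamoxifen-dependent Cre in cells that express Foxp3, and the second makes a red label once Cre has acted. Mice were 8 weeks old and received chow with tamoxifen over 2 weeks and then 4 weeks of standard chow. Ex-Foxp3 cells were sorted as red without green, and labeled cells as red with green. Cre therefore acted only in cells that expressed Foxp3 during the tamoxifen feed, in control mice too, and floxed Uhrf1 could be cut only there. The labels call the libraries of a group biological replicates.

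Total counts per library ran from 2095699 to 2665449 in ex-Foxp3 fl/fl, 1052731 to 2553989 in labeled fl/fl, 1589473 to 3435802 in ex-Foxp3 control and 1153730 to 2609699 in labeled control libraries. Levels are in CPM, the reads of a gene scaled to a fixed library total. Libraries with the same number in the labels resembled each other: deviations from the group means correlated between the ex-Foxp3 and the labeled library of each of the 11 numbers (r = 0.138 to 0.36 across genes), so a number is treated as a pair, and fits with the number as a block are given beside counts and calls that they change. For fl/fl number 4 and control number 2 another number correlated higher (0.254 against 0.207, and 0.257 against 0.225). These values do not show that a number is 1 mouse. Some libraries stood apart. In both control libraries of numbers 2 and 3 the sum over Y-linked genes was 318 to 434 CPM, against at most 2.33 CPM in the other 18 libraries. It was 0 CPM in every fl/fl library, so these reads were unevenly spread between the genotypes. Numbers 1 to 3 of both genotypes also had far more proliferation RNA in labeled cells than numbers 4 and above, as shown with the cell cycle genes. The labels name no batch. Markers of T cells summed to between 3560 and 4590 CPM in all 22 libraries. The sum over 11 natural killer (NK) cell markers ran from 12.4 to 79.2 CPM in ex-Foxp3 fl/fl libraries, with the 3 highest in numbers 1 to 3 (66.1, 54.4 and 79.2 CPM), from 8.55 to 37.3 CPM in labeled fl/fl, from 8.37 to 24 CPM in ex-Foxp3 control and from 6.99 to 19.1 CPM in labeled control libraries. Much of this sum was Cd7, at 11.9 to 52.5, 7.57 to 34.8, 6.25 to 23.6 and 6.16 to 16.6 CPM in the same groups. Most of the 11 markers were at 0 in every library. Whether the sum reflects NK cells was not tested. In bulk samples fewer cells of a type and less RNA per cell cannot be told apart.

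Foxp3 itself (ENSMUSG00000039556, chromosome X, 7579676 to 7595243, build GRCm38) was far lower in ex-Foxp3 cells of both genotypes, and not absent from them. It had 13.3 CPM in the lowest, 67.5 CPM in the median and 113 CPM in the highest ex-Foxp3 fl/fl library, against 317, 360 and 508 CPM in labeled fl/fl libraries. It had 79.4, 122, 151, 84.4 and 107 CPM in ex-Foxp3 control libraries, against 388, 400, 397, 428 and 418 CPM in labeled control libraries. In neither genotype did the populations overlap. The populations were sorted on the green reporter of the Foxp3 allele, so a fall of Foxp3 within a genotype checks the sort and is no separate finding. Foxp3 fell by 2.63 ± 0.37 in fl/fl (log2 fold change ± SE, adjusted p = 5.33e-05, edgeR's quasi-likelihood test with Benjamini-Hochberg adjustment) and by 1.90 ± 0.39 in control mice (adjusted p = 0.0235). The control call was lost without any 1 of control ex-Foxp3 libraries 1, 4 or 5 or labeled libraries 2 or 3, with adjusted p up to 0.0998. The difference between the genotypes was -0.73 ± 0.52 (95% interval -1.80 to 0.34, adjusted p = 1). Taken pair by pair, the change averaged -2.94 ± 1.03 in 6 fl/fl pairs and -1.93 ± 0.395 in 5 control pairs (SD; exact permutation test over 462 arrangements, 2-sided p = 0.0714, adjusted over the 2 genes so tested 0.143). In numbers 1 to 3 alone the difference was -1.71, and in numbers 4 and above -0.07.

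Uhrf1 (ENSMUSG00000001228, chromosome 17, 56303321 to 56323486) had 6.99, 15.1 and 26.2 CPM in the lowest, median and highest ex-Foxp3 fl/fl library, against 10.4, 44.1 and 88.5 CPM in labeled fl/fl libraries. It had 24.1, 34.2, 14.9, 7.3 and 16.3 CPM in ex-Foxp3 control libraries, against 59.3, 63.2, 104, 15.4 and 11.3 CPM in labeled control libraries. The genotypes overlapped in both populations, so the level of Uhrf1 did not separate fl/fl from control libraries. The table gives 1 count over the whole gene, the floxed exons are not named in the sources used here, and the count therefore does not check the deletion. In labeled cells the level followed the number in both genotypes, with 59.3 CPM or more in numbers 1 to 3 and 19 CPM or less in numbers 4 and above. The change was -1.48 ± 0.62 in fl/fl (adjusted p = 0.191) and -1.44 ± 0.67 in control mice (adjusted p = 0.491), and their difference -0.04 ± 0.90 (95% interval -1.90 to 1.81, adjusted p = 1). The exact permutation test over pairs gave p = 0.948, adjusted 0.948.

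No gene changed differently on loss of Foxp3 in fl/fl and control mice at an adjusted p below 0.05: of 9921 genes tested, 0 (0%) passed in edgeR's quasi-likelihood test, 236 (2.38%) had an unadjusted p below 0.05, and DESeq2 also called 0, with 237 at an unadjusted p below 0.05. With the number as a block the count was again 0 (0%), with 391 genes (3.94%) at an unadjusted p below 0.05. The bound that this sets depends on the level of the gene. The 95% interval of the difference lay within 1 log2 unit of 0 for 6731 genes (67.8%), namely 6510 of the 7245 genes whose mean log2 CPM was 4 or more (89.9%) and 221 of the 2676 genes below (8.26%). The median half-width of that interval was 0.437 in the first set and 1.3 in the second. These intervals are not adjusted for the number of genes, so a difference had to be larger than its own half-width to pass.

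Within each genotype loss of Foxp3 was accompanied by many changes. In fl/fl mice 204 genes (2.06%) rose and 202 (2.04%) fell. In control mice 19 (0.192%) rose and 16 (0.161%) fell. With the block the counts were 410 (4.13%) and 483 (4.87%) in fl/fl and 85 (0.857%) and 126 (1.27%) in control mice. Called in both genotypes with the same direction were 31 genes, which is 7.64% of the fl/fl list and 88.6% of the control list, and 0 genes were called with opposite directions. With the block 168 genes were shared, 18.8% of the fl/fl list and 79.6% of the control list, and again 0 opposite. The larger fl/fl list is not by itself a difference between genotypes, since the difference was tested and no gene passed. Single libraries moved these counts by over 1.5 times. The fl/fl count was 242, 263 and 260 without ex-Foxp3 fl/fl library 1, 2 or 3, and 262 without labeled fl/fl library 2. The control count was 12, 21, 15 and 19 without ex-Foxp3 control library 1, 3, 4 or 5, and 4 and 10 without labeled control library 2 or 3. The shared count was 11, 19, 14 and 18 without the same ex-Foxp3 control libraries, 4 and 10 without the same labeled control libraries, and 19 without ex-Foxp3 fl/fl library 2. Without control numbers 2 and 3, which carry Y-linked reads, the control and shared counts were both 4.

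Gene by gene the changes ran together. Across 9921 genes the log2 fold change in fl/fl correlated with that in control mice at Pearson r = 0.584 and Spearman rho = 0.494, and across the 7245 genes whose mean log2 CPM was 4 or more at r = 0.694 and rho = 0.546. These describe genes, which share libraries and are not independent replicates. The comparisons share no library. Both changes had the same sign in 6765 genes (68.2%). Of the 406 genes called in fl/fl, 399 (98.3%) had the same sign in control mice, with a median size of 0.66 in fl/fl and 0.38 in control mice along the fl/fl direction. That list was chosen by its fl/fl change, so the larger fl/fl value is no finding. The 35 genes called in control mice all had the same sign in fl/fl, with a median size of 0.689 in fl/fl and 0.79 in control mice. Among the 31 genes called in both, the medians were 0.80 and 0.776, and 23 changed more in fl/fl. Within numbers 1 to 3 alone the correlation across genes was 0.477, and within numbers 4 and above 0.257, each from fewer libraries.

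**Figure D1:**
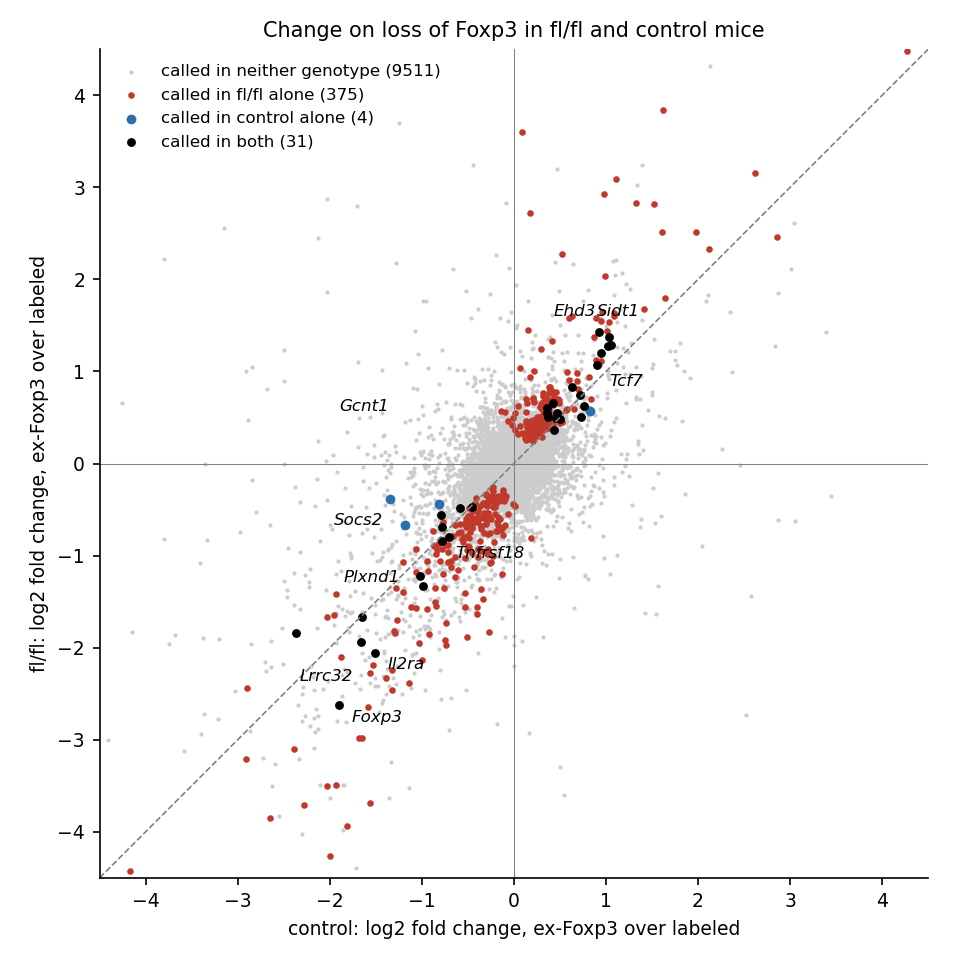
Log2 fold change of ex-Foxp3 over labeled cells for each gene tested, in fl/fl mice (vertical axis) and in control mice (horizontal axis), coloured by where the gene was called at an adjusted p below 0.05. Genes beyond 4.5 log2 units on either axis are not drawn; the dashed line marks equal change, and the 31 genes called in both genotypes lie along it at either end.

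The genes that fell in both genotypes included the interleukin 2 receptor and other surface proteins of Treg cells. Il2ra (ENSMUSG00000026770, chromosome 2, 11642792 to 11693191), the alpha chain that gives the interleukin 2 receptor its high affinity, had 89.7, 111 and 139 CPM in the lowest, median and highest ex-Foxp3 fl/fl library, against 356, 469 and 519 CPM in labeled fl/fl libraries. In control mice it had 192, 196, 192, 179 and 201 CPM in ex-Foxp3 libraries, against 547, 643, 558, 514 and 468 CPM in labeled libraries. All 6 ex-Foxp3 fl/fl libraries lay below all 5 ex-Foxp3 control libraries, while labeled libraries overlapped. Il2ra fell by 2.05 ± 0.23 in fl/fl (adjusted p = 2.66e-06) and by 1.51 ± 0.25 in control mice (adjusted p = 0.00334), and both calls held without any 1 library. The difference was -0.54 ± 0.33 (95% interval -1.22 to 0.13, adjusted p = 1).

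Plxnd1, a receptor for semaphorins, had 39.1, 58.3 and 66.1 CPM in the lowest, median and highest ex-Foxp3 fl/fl library, against 120, 133 and 164 CPM in labeled fl/fl libraries. It had 39.7, 67.8, 91.6, 58.9 and 77.4 CPM in ex-Foxp3 control libraries, against 151, 136, 124, 120 and 140 CPM in labeled control libraries. The populations did not overlap in either genotype. The changes were -1.33 ± 0.15 in fl/fl and -0.99 ± 0.16 in control mice (adjusted p = 1.45e-07 and 0.0011), also without any 1 library, and the difference was -0.34 ± 0.21 (95% interval -0.77 to 0.09). Tnfrsf18, the costimulatory receptor GITR, changed by -0.84 ± 0.14 in fl/fl and -0.78 ± 0.16 in control mice, with adjusted p = 0.000218 and 0.0141. Its difference of -0.07 ± 0.21 had a 95% interval of -0.49 to 0.36. The control call was lost without control ex-Foxp3 library 1 or labeled libraries 2 or 3 (adjusted p up to 0.0865).

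**Figure D2:**
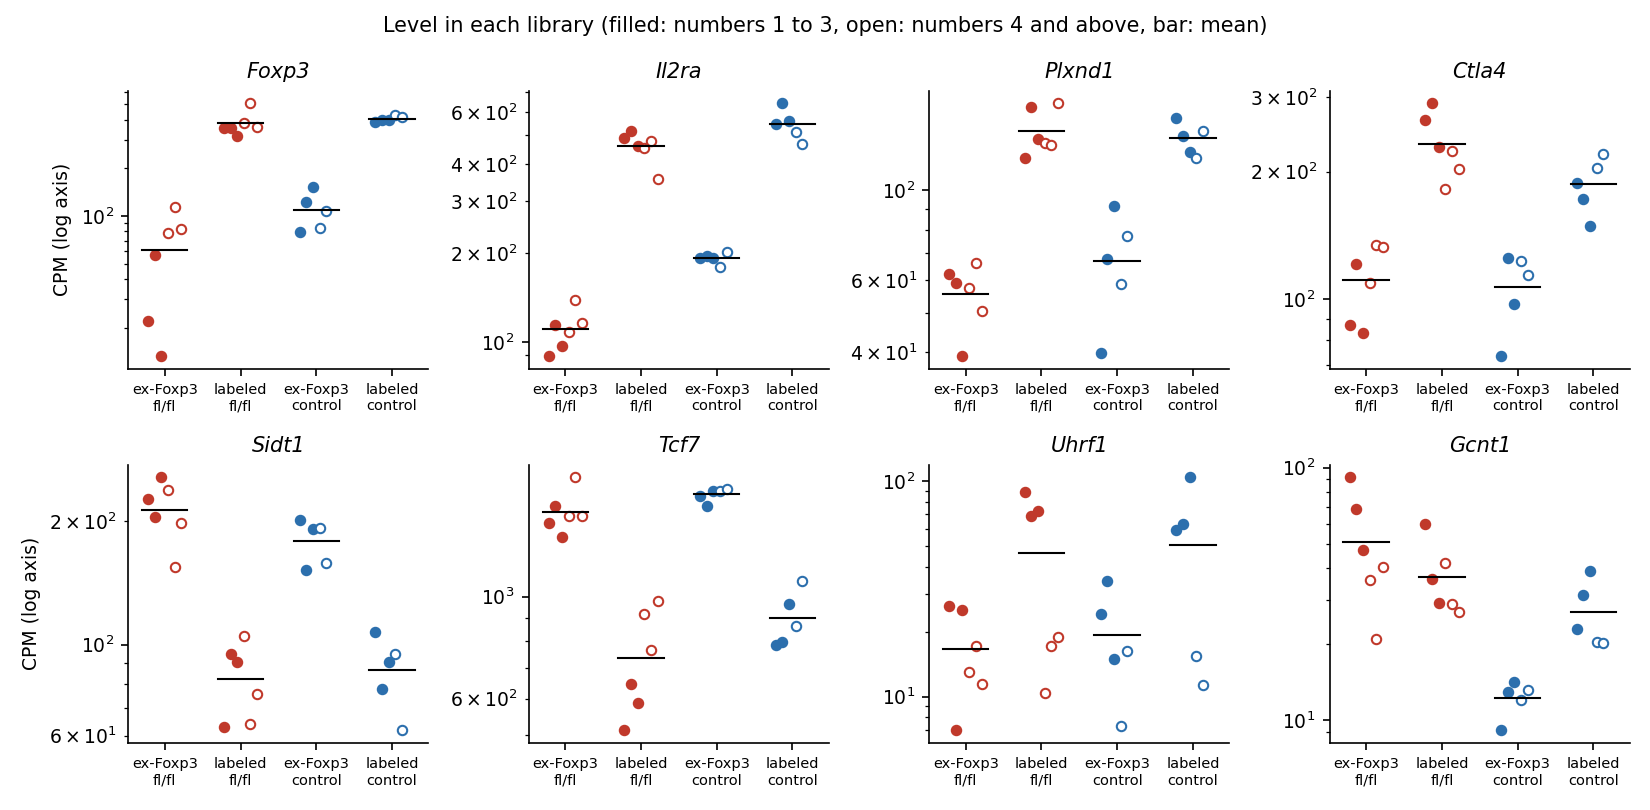
CPM of 8 genes in each of the 22 libraries on a log axis, with fl/fl groups left of control groups and ex-Foxp3 left of labeled; filled points are numbers 1 to 3 and open points numbers 4 and above, and bars are means. Foxp3, Il2ra, Plxnd1 and Ctla4 are lower and Sidt1 and Tcf7 higher in ex-Foxp3 cells of both genotypes without overlap, Uhrf1 follows the number in labeled cells, and Gcnt1 is lowest in ex-Foxp3 control libraries.

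The stretch of 250 bases before the start of Il2ra is shown because this gene fell in both genotypes and because Uhrf1 acts through methylated CG sites. It lies on the plus strand at chr2:11642542-11642791 (RefSeq, GRCm38.p6), is written 5′ to 3′ with each CG in capitals, and holds 3 CG sites. Of 32851 promoters of this length in the RefSeq table, 71.0% hold as many or more. The count of letters says nothing of methylation, which was not measured in these data.
Il2ra: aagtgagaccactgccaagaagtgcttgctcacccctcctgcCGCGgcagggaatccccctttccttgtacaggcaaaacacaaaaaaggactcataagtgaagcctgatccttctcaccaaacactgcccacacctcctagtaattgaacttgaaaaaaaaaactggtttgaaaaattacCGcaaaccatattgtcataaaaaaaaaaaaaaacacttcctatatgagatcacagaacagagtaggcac

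Genes that rose in both genotypes included markers of resting and less differentiated T cells. Sidt1, a membrane protein of the double-stranded RNA transporter family, had 154, 215 and 255 CPM in the lowest, median and highest ex-Foxp3 fl/fl library, against 63.1, 83.2 and 105 CPM in labeled fl/fl libraries. It had 201, 152, 191, 192 and 158 CPM in ex-Foxp3 control libraries, against 107, 77.8, 90.7, 95 and 61.9 CPM in labeled control libraries. Every ex-Foxp3 library lay above every labeled one. The changes were 1.37 ± 0.15 in fl/fl and 1.03 ± 0.16 in control mice (adjusted p = 1.45e-07 and 0.0011), and the difference 0.34 ± 0.22 (95% interval -0.10 to 0.78). Themis, a T cell receptor signalling protein, rose by 1.20 ± 0.14 in fl/fl and 0.95 ± 0.15 in control mice (adjusted p = 1.05e-06 and 0.00156). These calls of Sidt1 and Themis held without any 1 library.

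Tcf7, which encodes TCF1 of naive and memory T cells, had 1350, 1500 and 1820 CPM in the lowest, median and highest ex-Foxp3 fl/fl library, against 512, 705 and 979 CPM in labeled fl/fl libraries. It had 1660, 1580, 1700, 1700 and 1720 CPM in ex-Foxp3 control libraries, against 784, 798, 962, 865 and 1080 CPM in labeled control libraries. The populations were again apart in both genotypes. Tcf7 rose by 1.06 ± 0.16 and 0.90 ± 0.18 (fl/fl and control mice, adjusted p = 0.00011 and 0.0141), with a difference of 0.16 ± 0.24 (95% interval -0.32 to 0.65). Ehd3, a membrane trafficking ATPase, rose by 1.43 ± 0.16 in fl/fl and 0.93 ± 0.17 in control mice (adjusted p = 5.56e-07 and 0.009). Its difference of 0.50 ± 0.24 had a 95% interval of 0.02 to 0.98 and an adjusted p of 1. Pde7a, a phosphodiesterase that breaks down cyclic AMP, rose by 1.28 ± 0.20 in fl/fl and 1.02 ± 0.22 in control mice (adjusted p = 0.000178 and 0.0317). The coreceptor Cd4 rose by 0.50 ± 0.08 in fl/fl and 0.46 ± 0.09 in control mice (adjusted p = 0.000126 and 0.009), and the interval of its difference, -0.20 to 0.28, was the narrowest of the genes named in this paragraph. The control calls of Tcf7 and Cd4 were lost without labeled control library 2 (adjusted p = 0.0615 and 0.0517), that of Ehd3 without labeled control library 2 or 3 (up to 0.0536), and that of Pde7a without ex-Foxp3 control library 1, 4 or 5 or labeled control library 2 or 3 (up to 0.141).

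Over the 27 Treg core genes tested, 13 fell and 0 rose in fl/fl, and 4 fell and 0 rose in control mice. Foxp3, by whose reporter the cells were sorted, is a member and is counted among those that fell in both genotypes. The median change was -1.05 in fl/fl and -0.82 in control mice, against 0.01 and 0.00 over all genes tested, and the sign was the same in 27 of 27 genes. Over all genes tested 2.04% fell in fl/fl and 0.161% in control mice. None of the 27 differed between genotypes at an adjusted p below 0.05. At an unadjusted p below 0.05 it was 0 without the block and 1 with it, Dusp4, a phosphatase of MAP kinases. In the blocked fit of only the 22 libraries the 95% interval of the difference lay below 0 for Il2ra (-0.81 to -0.31, adjusted p = 0.236), Ecm1 (-1.65 to -0.50, adjusted p = 0.527) and Lrrc32 (-1.36 to -0.07, adjusted p = 0.982). It lay above 0 for Socs2 (0.003 to 1.07, adjusted p = 0.997), and for Itgae it was -0.03 to 0.69. Members on either side were not counted over the whole list in that fit. With the block 18 fell in fl/fl and 13 in control mice, against 4.87% and 1.27% of all genes. Lrrc32, which encodes the TGF-beta docking receptor GARP, had 17.6, 25.4 and 43.1 CPM in the lowest, median and highest ex-Foxp3 fl/fl library, against 107, 128 and 166 CPM in labeled fl/fl libraries. It had 25.7, 38.8, 30.7, 52.1 and 57.9 CPM in ex-Foxp3 control libraries, against 113, 117, 113, 172 and 95.1 CPM in labeled control libraries, again without overlap. Lrrc32 fell by 2.27 ± 0.36 in fl/fl (adjusted p = 0.000216), and its change of -1.56 ± 0.38 in control mice missed the threshold (adjusted p = 0.0579, with the block 0.0289).

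Several further members of the list were called in fl/fl and missed the threshold by little in control mice. Ctla4, the inhibitory receptor that competes for B7, changed by -1.06 ± 0.17 in fl/fl and -0.81 ± 0.19 in control mice (adjusted p = 0.000248 and 0.0512, in control mice 0.00447 with the block). Tnfrsf4, the costimulatory receptor OX40, changed by -1.18 ± 0.23 in fl/fl and -1.06 ± 0.25 in control mice (adjusted p = 0.00208 and 0.0517, in control mice 5.21e-05 with the block). Itgae, the integrin chain CD103, changed by -1.67 ± 0.42 and -2.04 ± 0.48 (fl/fl and control mice, adjusted p = 0.0206 and 0.0526). Its fl/fl call was lost without labeled fl/fl library 1 or ex-Foxp3 fl/fl library 3 or 6 (up to 0.054), and with the block the adjusted p in control mice was 0.000218. Ikzf2 and Nrp1, both abundant, were called in neither genotype. Ikzf2, which encodes the transcription factor Helios, changed by -0.54 ± 0.21 in fl/fl and -0.41 ± 0.23 in control mice. The coreceptor Nrp1 changed by -0.34 ± 0.22 and -0.24 ± 0.24 in fl/fl and control mice. The member with the smallest p for the difference was Ecm1, a secreted matrix protein, with 8.04, 16.4 and 25.9 CPM in the lowest, median and highest ex-Foxp3 fl/fl library, against 33.1, 42.2 and 44.6 CPM in labeled fl/fl libraries. It had 45.6, 36.8, 34.5, 33.4 and 37.5 CPM in ex-Foxp3 control libraries, against 45.7, 58.6, 52.3, 28.1 and 57.6 CPM in labeled control libraries. Every ex-Foxp3 fl/fl library was below every ex-Foxp3 control library, and the 95% interval of the difference without the block ran from -2.12 to 0.11. Its change by pair was -2.33 to -0.701 in fl/fl and -0.658 to 0.241 in control mice, without overlap, which held for 0.464% of all genes. Ecm1 was picked by its p for this same difference, so the separation adds no support. The fl/fl call of Ecm1 (adjusted p = 0.0394) was lost without any 1 of ex-Foxp3 fl/fl libraries 1, 2, 3, 4 and 6 or labeled fl/fl libraries 1, 2, 3, 5 and 6 (up to 0.0895).

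Lists of genes linked to interleukin 2 and to TNF receptors also had members that fell. Gene lists can share members, as Tnfrsf9 is in both the TNF receptor and the effector Treg list, so their counts are not separate findings. Of 16 interleukin 2 and STAT5 response genes, 5 fell in fl/fl and 2 in control mice (over all genes 2.04% and 0.161%), with medians of -0.48 and -0.49. With the block 8 fell in fl/fl and 7 in control mice, against 4.87% and 1.27% of all genes. Pim1, a survival kinase induced by cytokines, changed by -0.80 ± 0.14 in fl/fl and -0.49 ± 0.15 in control mice (adjusted p = 0.000216 and 0.173, in control mice 0.00369 with the block). Of 22 TNF receptor and NF-kB genes, 6 fell in fl/fl and 1 in control mice (10 and 4 with the block), and both medians were -0.24. Tnfrsf1b, which encodes TNF receptor 2, changed by -0.82 ± 0.15 and -0.57 ± 0.16 (fl/fl and control mice, adjusted p = 0.000671 and 0.146, in control mice 0.00623 with the block). Tnfrsf9, the costimulatory receptor 4-1BB, changed by -1.85 ± 0.35 in fl/fl and -0.93 ± 0.38 in control mice (adjusted p = 0.00216 and 0.403), with a difference of -0.92 ± 0.52 (95% interval -1.98 to 0.13). Of 28 effector Treg genes 8 fell in fl/fl and 0 passed in control mice (with the block 9 fell and 1 rose in fl/fl, and 6 fell in control mice), with medians of -0.40 and -0.41. Among them Ccr8, a chemokine receptor of tissue Treg cells, changed by -1.73 ± 0.37 in fl/fl and -0.74 ± 0.41 in control mice (adjusted p = 0.00314 and 0.59), and its difference of -0.99 ± 0.55 had a 95% interval of -2.10 to 0.12. With the block 3 of the 28, among them Ccr8 and Tnfrsf9, had an unadjusted p below 0.05 for the difference, against 3.94% of all genes. In the blocked fit of 22 libraries their intervals were -2.16 to -0.15 and -1.99 to -0.003 (adjusted p = 0.982 and 0.997).

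Of 22 naive and central T cell genes, 5 rose in fl/fl and 2 in control mice (8 and 4 with the block), 0 fell, and the medians were 0.32 and 0.34. Over all genes 2.06% rose in fl/fl and 0.192% in control mice (4.13% and 0.857% with the block). S1pr1, which leads T cells out of lymph nodes, changed by 0.57 ± 0.17 in fl/fl and 0.42 ± 0.19 in control mice (adjusted p = 0.051 and 0.454, with the block 7.33e-05 and 0.0302). Il6ra, the interleukin 6 receptor chain, rose by 0.72 ± 0.15 in fl/fl (adjusted p = 0.00405) and changed by 0.35 ± 0.16 in control mice (adjusted p = 0.491). Il7r, the interleukin 7 receptor chain, changed by 0.77 ± 0.23 in fl/fl (adjusted p = 0.0576, with the block 0.00369) and 0.19 ± 0.26 in control mice. Without the block the 1 member with an unadjusted p below 0.05 for the difference was Rapgef4, a cyclic AMP sensor that activates Rap proteins. It had 18.1, 29.6 and 40.7 CPM in the lowest, median and highest ex-Foxp3 fl/fl library, against 8.2, 9.26 and 11.6 CPM in labeled fl/fl libraries. It had 48.8, 20, 29.4, 27.6 and 26.5 CPM in ex-Foxp3 control libraries, against 28.3, 19.9, 15.8, 20 and 12.2 CPM in labeled control libraries. The ex-Foxp3 levels of the genotypes overlapped, and labeled fl/fl libraries all lay below labeled control libraries. Rapgef4 rose by 1.60 ± 0.22 in fl/fl (adjusted p = 1.01e-05), its change in control mice was 0.63 ± 0.23 (adjusted p = 0.285), and the difference of 0.96 ± 0.32 did not pass (95% interval 0.32 to 1.61, adjusted p = 1). With the block 3 of the 22 had an unadjusted p below 0.05 for the difference (Il6ra, Il7r and Rapgef4), against 3.94% of all genes.

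Th1 and cytotoxic genes, the programme of inflammatory T cells, had few called members without the block. Of 22 genes, 1 rose in fl/fl and 0 in control mice, near the 2.06% and 0.192% over all genes. The median change was 0.75 in fl/fl and 0.38 in control mice, while the median of the gene-by-gene differences was 0.16, with a higher change in fl/fl in 14 of 22 genes (5057 of 9921 over all genes). The list as a whole was not tested. The list median within a pair was 0.337 to 0.979 in the 6 fl/fl pairs and 0 to 0.337 in the 5 control pairs. No member had an unadjusted p below 0.05 for the difference, with or without the block. With the block 6 rose and 2 fell in fl/fl, and 0 rose and 2 fell in control mice. Over all genes with the block 4.13% rose and 4.87% fell in fl/fl, and 0.857% rose and 1.27% fell in control mice. Klrk1, the receptor NKG2D of NK and cytotoxic T cells, was the 1 called gene, with 18.6 and 11 CPM in ex-Foxp3 fl/fl libraries 1 and 3, at most 2.33 CPM in the other ex-Foxp3 fl/fl libraries and at most 1.37 CPM in all other groups. These are libraries with high NK marker sums, whose part in the result was not tested. Klrk1 did not pass the filter on low counts without ex-Foxp3 fl/fl library 1 or 3, so it was not tested there, and it entered the test only through libraries in which it was high. Leaving out labeled fl/fl library 2, 3, 4, 5 or 6 also ended the call (up to 0.08). Eomes, a transcription factor of cytotoxic cells, changed by 1.95 ± 0.59 in fl/fl and 1.22 ± 0.63 in control mice (adjusted p = 0.0502 and 0.55, in fl/fl 0.00792 with the block). Il18r1, the interleukin 18 receptor chain, had 434, 585 and 1200 CPM in the lowest, median and highest ex-Foxp3 fl/fl library, against 362, 469 and 482 CPM in labeled fl/fl libraries. It had 334, 348, 347, 348 and 255 CPM in ex-Foxp3 control libraries, against 302, 334, 329, 337 and 300 CPM in labeled control libraries. Both fl/fl populations lay above both control populations, and the difference of the changes was 0.56 ± 0.39 (95% interval -0.24 to 1.37). Stat4, the signal transducer of interleukin 12, changed by 0.30 ± 0.10 in fl/fl and 0.29 ± 0.11 in control mice, with a 95% interval of the difference of -0.28 to 0.30.

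Cell cycle genes had lower median levels in ex-Foxp3 than in labeled cells in every pair of numbers 1 to 3, with medians much nearer 0 in numbers 4 and above. Of 30 S phase genes, 2 fell in fl/fl and 0 in control mice, with median changes of -0.96 and -0.62 and the same sign in 30 of 30. Of 29 G2/M genes, 0 passed in either genotype in edgeR's test, with medians of -1.88 and -1.28. With the block 13 S phase and 14 G2/M genes fell in fl/fl and 3 and 1 in control mice. Over all genes 2.04% fell in fl/fl and 0.161% in control mice, and with the block 4.87% and 1.27%. The G2/M median within a pair was -2.53, -1.97 and -2.05 in fl/fl numbers 1 to 3, and 0.09, -0.22 and -0.32 in fl/fl numbers 4 to 6. It was -1.91, -1.11 and -1.34 in control numbers 1 to 3, and -0.31 and -0.32 in control numbers 4 and 5. Mki67, the proliferation marker Ki-67, had 422, 346, 524, 176, 184 and 177 CPM in ex-Foxp3 fl/fl libraries 1 to 6, against 1650, 1110, 1310, 180, 209 and 195 CPM in labeled fl/fl libraries 1 to 6. It had 98.1, 354, 360, 110 and 154 CPM in ex-Foxp3 control libraries, against 510, 725, 903, 155 and 152 CPM in labeled control libraries. The difference of its changes was -0.16 ± 1.03, with a 95% interval of -2.28 to 1.97, so these libraries set only a wide bound. Mcm3, a subunit of the replicative helicase, fell by 1.16 ± 0.27 in fl/fl (adjusted p = 0.00987), also in numbers 1 to 3 alone (-1.48) and in numbers 4 and above alone (-0.70), and changed by -0.60 ± 0.29 in control mice (adjusted p = 0.508). Tk1, thymidine kinase, was the other S phase gene called in fl/fl (-1.35 ± 0.37, adjusted p = 0.0322). That call did not hold without ex-Foxp3 fl/fl library 1, 2, 4 or 6 or labeled fl/fl library 1, 2 or 3 (up to 0.0899).

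**Figure D3:**
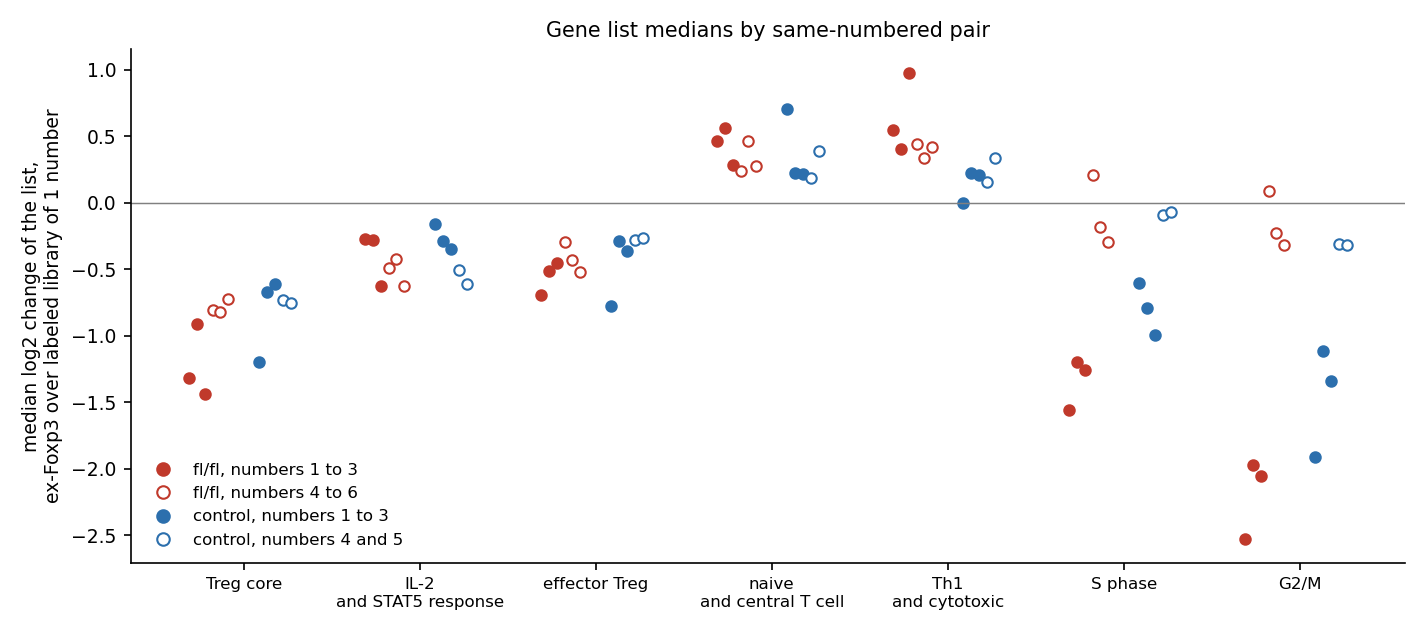
Median log2 change of the members of 7 gene lists between the ex-Foxp3 and labeled library of each number, with fl/fl pairs left of control pairs; filled points are numbers 1 to 3 and open points numbers 4 and above. Treg core medians are below 0 in all 11 pairs, and G2/M medians separate numbers 1 to 3 from numbers 4 and above in both genotypes.

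Of 19 DNA methylation genes, among them Uhrf1, 0 passed in either genotype, also with the block, and the medians were -0.10 in fl/fl and -0.03 in control mice; 12 of 19 had the same sign. Of 38 interferon-stimulated genes 4 fell in fl/fl and 1 in control mice (over all genes 2.04% and 0.161%), with medians of 0.06 and -0.04. With the block 7 of them fell in fl/fl and 2 in control mice, against 4.87% and 1.27% of all genes. Of 17 glycolysis genes 3 fell in fl/fl and 0 in control mice (5 and 1 with the block), with medians of -0.21 and -0.13. Of 11 inhibitory receptors 1 rose and 1 fell in fl/fl and 0 passed in control mice (with the block 1 rose and 2 fell in fl/fl, and 1 rose and 1 fell in control mice). The receptor that rose was Btla, by 0.51 ± 0.11 (adjusted p = 0.00405), with 0.45 ± 0.12 in control mice (adjusted p = 0.0977, with the block 0.00948). Lag3, an inhibitory receptor that binds MHC class II, was the 1 member with an unadjusted p below 0.05 for the difference without the block. It had 38.6, 59.1 and 64.5 CPM in the lowest, median and highest ex-Foxp3 fl/fl library, against 31.3, 50.5 and 82.1 CPM in labeled fl/fl libraries. It had 25.2, 45.9, 55.8, 51.6 and 56.4 CPM in ex-Foxp3 control libraries, against 12.5, 10.7, 17.1, 31.5 and 32.3 CPM in labeled control libraries. The fl/fl populations overlapped widely, and labeled control libraries lay below all labeled fl/fl libraries but library 2. The changes were 0.11 ± 0.31 in fl/fl and 1.23 ± 0.36 in control mice, and the difference -1.12 ± 0.47 (95% interval -2.09 to -0.15, adjusted p = 1). With the block 4 of the 11 receptors had an unadjusted p below 0.05 for the difference, namely Cd160, Cd96, Havcr2 and Lag3. Over all genes that share was 3.94%, and none of the receptors passed after adjustment. Their directions were mixed. The mean change by pair was higher in fl/fl than in control mice for Cd96 (0.303 and -0.213). It was lower for Cd160 (-0.766 and 0.439) and Lag3 (0.171 and 1.22).

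Markers of other cell types moved with the populations in some lists. The sum over 6 thymocyte markers was 271 to 410 CPM in ex-Foxp3 fl/fl, against 94 to 188 CPM in labeled fl/fl libraries, and 246 to 329 CPM in ex-Foxp3 control, against 117 to 179 CPM in labeled control libraries, without overlap in either genotype. Nearly all of it was Themis, which mature T cells also express and which rose in both genotypes as given above. Without Themis the sum was 19 to 27.4, 8.27 to 33.7, 19.2 to 31.1 and 9.53 to 19.8 CPM in the same groups, most of it Cd1d1. The recombination genes Rag1 and Rag2 and the terminal transferase gene Dntt, which define immature thymocytes, were at 0 in most libraries and at most 1.25 CPM in any. Over 7 CD8 T cell markers the sum was 16.1 to 49.9 CPM in ex-Foxp3 fl/fl, 20.4 to 26.9 in labeled fl/fl, 18.7 to 28.9 in ex-Foxp3 control and 20.3 to 30.8 CPM in labeled control libraries. Myeloid markers summed to 14 to 39.1, 13.3 to 66.5, 11 to 22.1 and 21 to 37.7 CPM in the same groups, and B cell markers to 38.6 to 57.8, 17.6 to 44.2, 19.5 to 45.4 and 11.5 to 50.3 CPM. These ranges overlapped, but within pairs the B cell sum and the NK sum were each higher in the ex-Foxp3 library in 6 of 6 fl/fl pairs, and in 2 and 3 of 5 control pairs. Most of the B cell sum in ex-Foxp3 fl/fl libraries was Cd22 (31.6 to 52 CPM), which rose in 6 of 6 fl/fl and 5 of 5 control pairs. Cd79b went the other way, falling in 5 of 6 fl/fl and 5 of 5 control pairs. Much of the NK sum was Cd7, as given above. Of 15 myeloid genes tested, 5 had an unadjusted p below 0.05 for the difference with the block, against 3.94% of all genes. These were C1qa, Emr1, Fcer1g, Fcgr3 and Lyz2, and none passed after adjustment. Without the block it was 1 of 15, against 2.38% of all genes. C1qa, Emr1 and Fcer1g were near the floor, at most 2.86, 3.81 and 3.81 CPM in any of the 22 libraries. They passed a filter on low counts set over 33 libraries, some of which lie outside this comparison, so the count is only a description. The erythroid sum was at most 21.9 CPM in any library, and the stromal and endothelial sum 150 to 194 CPM in fl/fl and 183 to 254 CPM in control libraries. Their part in the gene results was not tested, apart from the values without ex-Foxp3 fl/fl libraries 1 and 3: the fl/fl count was then 163, the control count 47, the shared count 31 and the interaction count 0.

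Genes called in 1 genotype alone were read against the test of the difference. Of 375 genes called in fl/fl alone, 368 (98.1%) had the same sign in control mice, and 42 (11.2%) had an unadjusted p below 0.05 for the difference, against 2.38% of all genes tested. This share rests on a list chosen by one side of the difference and is a description. In control mice alone 4 genes were called, all with the same sign in fl/fl, namely Socs2, Usp20, Als2cl and Tlr7. Socs2, a feedback inhibitor of cytokine signalling, had 20, 29.9 and 42.7 CPM in the lowest, median and highest ex-Foxp3 fl/fl library, against 36.9, 44.6 and 70.1 CPM in labeled fl/fl libraries. It had 25.7, 14.2, 19.2, 10.9 and 11.1 CPM in ex-Foxp3 control libraries, against 38.1, 34.9, 41.1, 33.9 and 34.9 CPM in labeled control libraries. The changes of Socs2 were -0.67 ± 0.22 in fl/fl and -1.18 ± 0.25 in control mice (adjusted p = 0.0681 and 0.0191, in fl/fl 0.0162 with the block), and the difference 0.51 ± 0.33 (95% interval -0.15 to 1.18). The control call of Socs2 was lost without ex-Foxp3 control library 2, 4 or 5 or labeled control library 2 or 3 (up to 0.0874). The changes of Usp20, a deubiquitinase, were -0.44 ± 0.16 in fl/fl and -0.81 ± 0.19 in control mice (adjusted p = 0.123 and 0.0335), a control call lost without ex-Foxp3 control library 1, 2, 3 or 4 or labeled control library 2, 3 or 4 (up to 0.181). Als2cl changed by 0.57 ± 0.18 in fl/fl and 0.82 ± 0.19 in control mice (adjusted p = 0.058 and 0.0437, in fl/fl 0.00446 with the block). Its control call was lost without ex-Foxp3 control library 1, 3, 4 or 5, any 1 labeled control library or labeled fl/fl library 3 (up to 0.195). Tlr7, a sensor of single-stranded RNA, had 7.39, 10.4 and 12.7 CPM in the lowest, median and highest ex-Foxp3 fl/fl library, against 9.6, 13.3 and 18 CPM in labeled fl/fl libraries. It had 5.9, 5.81, 13.2, 4.17 and 6.98 CPM in ex-Foxp3 control libraries, against 13.2, 32.2, 18, 10.8 and 19.2 CPM in labeled control libraries. The populations overlapped in both genotypes. Tlr7 changed by -0.38 ± 0.29 in fl/fl and -1.34 ± 0.32 in control mice (adjusted p = 0.53 and 0.0464), with a difference of 0.96 ± 0.43 (95% interval 0.09 to 1.83, adjusted p = 1). The control call of Tlr7 was lost without ex-Foxp3 control library 1, 2, 4 or 5, labeled control library 2, 3 or 5, ex-Foxp3 fl/fl library 2 or 4 or labeled fl/fl library 3 or 5 (up to 0.257).

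The genes with the smallest p for the difference are given as values, since none passed. On the side where the fl/fl change was higher, Nudt19, a hydrolase of coenzyme A derivatives, had 13.2, 17.1 and 24.6 CPM in the lowest, median and highest ex-Foxp3 fl/fl library, against 4.73, 12.9 and 17.6 CPM in labeled fl/fl libraries. It had 8.58, 8.4, 15.3, 16.7 and 15.7 CPM in ex-Foxp3 control libraries, against 26.8, 23, 20.3, 16.2 and 31.4 CPM in labeled control libraries. The populations overlapped in both genotypes. The change was 0.59 ± 0.25 in fl/fl and -0.83 ± 0.28 in control mice, and the difference of 1.42 ± 0.38 (95% interval 0.66 to 2.18) had the smallest p on this side, with an adjusted p of 1. It was 1.30 in numbers 1 to 3 alone and 1.51 in numbers 4 and above. Tbp, the TATA-binding protein of RNA polymerase initiation, rose by 0.56 ± 0.13 in fl/fl (adjusted p = 0.00892) and changed by -0.09 ± 0.14 in control mice (difference 0.65 ± 0.19, 95% interval 0.26 to 1.04). Echs1, an enzyme of mitochondrial fatty acid oxidation, changed by 0.29 ± 0.19 in fl/fl and -0.66 ± 0.22 in control mice (difference 0.96 ± 0.29, 95% interval 0.37 to 1.54). Scfd2, of the Sec1 family of vesicle fusion proteins, and Pex3, which inserts proteins into peroxisome membranes, had differences of 0.87 ± 0.28 and 0.97 ± 0.31. Pair by pair, the changes of Tbp, Echs1, Scfd2 and Pex3 did not overlap between genotypes, as was the case for 46 of 9921 genes (0.464%). They were picked by the p of this same difference, so the separation adds no support. Whether 46 genes exceed chance was not tested.

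On the side where the fl/fl change was lower, Pfas, an enzyme of purine synthesis, had 17.6, 24.8 and 34.5 CPM in the lowest, median and highest ex-Foxp3 fl/fl library, against 42.3, 53.6 and 59.6 CPM in labeled fl/fl libraries. It had 27.9, 31, 36.6, 36 and 34.9 CPM in ex-Foxp3 control libraries, against 43.8, 41.8, 42, 53.9 and 36.6 CPM in labeled control libraries. The populations did not overlap in fl/fl and met at 36.6 CPM in control mice. Pfas fell by 1.01 ± 0.14 in fl/fl (adjusted p = 1.01e-05) and changed by -0.39 ± 0.15 in control mice (adjusted p = 0.344), a difference of -0.62 ± 0.21 (95% interval -1.04 to -0.20, adjusted p = 1). Marcksl1, an actin-binding membrane protein, had a difference of -0.99 ± 0.33, and Fam3c, a secreted protein, and Mapkapk2, the kinase downstream of p38, had -0.45 ± 0.16 and -0.46 ± 0.17. Among the genes named in the text, every pair of one genotype moved against every pair of the other in 2 genes. Both had been picked by a small p for this same difference, and the pattern was not counted over all genes tested. Ppp1r3f, a glycogen-targeting subunit of protein phosphatase 1, changed by -0.348 to -0.188 in the 6 fl/fl pairs and by 0.306 to 0.491 in the 5 control pairs (difference -0.64 ± 0.22, 95% interval -1.10 to -0.19). Dnmbp, a scaffold for dynamin, changed by -0.984 to -0.132 in fl/fl pairs and by 0.253 to 0.745 in control pairs (difference -0.76 ± 0.27, 95% interval -1.30 to -0.21). Neither passed after adjustment (adjusted p = 1 for both).

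**Figure D4:**
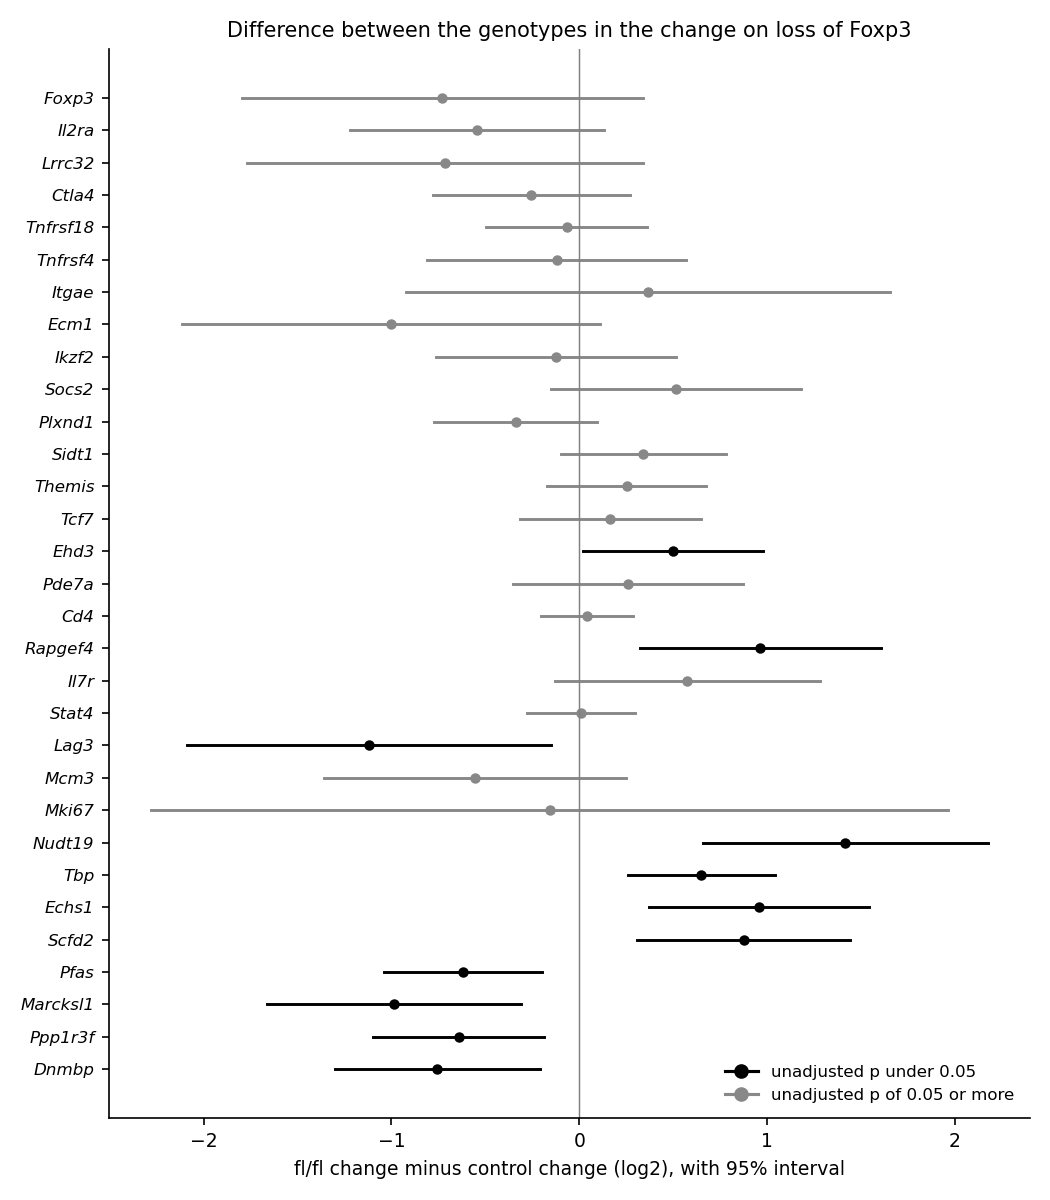
Difference between the genotypes in the log2 change on loss of Foxp3 (fl/fl change minus control change) with its 95% interval, for 31 named genes; black marks an unadjusted p below 0.05. The intervals of the Treg genes at the top include 0, that of Cd4 is narrow, and that of Mki67 spans -2.28 to 1.97.

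Called differences appeared only in blocked fits of the 22 libraries. With the number as a block and only the 22 ex-Foxp3 and labeled libraries, 1 of 9613 genes passed, Gcnt1 (ENSMUSG00000038843, chromosome 19, 17326141 to 17356667), named after its values were seen. Gcnt1 makes the core 2 O-glycans that carry selectin ligands on activated T cells. It had 20.9, 43.7 and 91.4 CPM in the lowest, median and highest ex-Foxp3 fl/fl library, against 26.7, 32.6 and 59.7 CPM in labeled fl/fl libraries. It had 9.12, 12.9, 14.1, 12 and 13.1 CPM in ex-Foxp3 control libraries, against 23, 31.4, 38.8, 20.4 and 20.1 CPM in labeled control libraries. Labeled levels of the genotypes overlapped, the fl/fl populations overlapped, and every ex-Foxp3 control library lay below every library of the other groups. In that fit the change was 0.38 in fl/fl and -1.11 in control mice, and the difference 1.49 ± 0.28 (95% interval 0.93 to 2.05, adjusted p = 0.0236). In the fit of 33 libraries without the block the difference was 1.60 ± 0.63 with a 95% interval of 0.32 to 2.88 and an adjusted p of 1. It was 2.1 in numbers 1 to 3 alone and 0.72 in numbers 4 and above. In that blocked fit of 22 libraries the number of genes called was 35 in numbers 1 to 3 alone, 0 in numbers 4 and above alone, and 0 to 4 when 1 number of a genotype was left out. The call of Gcnt1 was lost without any 1 of numbers 1, 2 and 3 of either genotype (adjusted p up to 0.429), and held without any 1 of the others (adjusted p up to 0.0406).

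The 250 bases before the start of Gcnt1 are printed for comparison with those of Il2ra, on the minus strand at chr19:17356668-17356917 (RefSeq, GRCm38.p6), 5′ to 3′ with each CG in capitals. They hold 10 CG sites, and 37.8% of the 32851 promoters hold as many or more.
Gcnt1: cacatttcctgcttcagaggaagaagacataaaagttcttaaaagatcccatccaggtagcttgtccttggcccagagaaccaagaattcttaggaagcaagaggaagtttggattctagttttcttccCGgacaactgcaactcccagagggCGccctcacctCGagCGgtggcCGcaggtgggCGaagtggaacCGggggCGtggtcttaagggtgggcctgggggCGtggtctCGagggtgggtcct

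After Gcnt1, the genes with the smallest p in that fit included Il2ra (difference -0.56, adjusted p = 0.236) and 2 genes of migratory effector T cells, neither of which passed (adjusted p = 0.306 for both). Ccr2, a chemokine receptor, averaged 205 CPM in ex-Foxp3 fl/fl, 207 in labeled fl/fl, 50.6 in ex-Foxp3 control and 130 CPM in labeled control libraries. S100a4, a calcium-binding protein of motile cells, averaged 96.9, 97.5, 37.3 and 70.6 CPM in the same groups. The blocked differences of Ccr2 and S100a4 were 1.2 and 0.795. The chemokine receptor Cxcr6 averaged 80.3, 44.8, 29.8 and 31.4 CPM, and its changes by pair were 0.416 to 1.53 in fl/fl and -0.321 to 0.129 in control mice, without overlap. Those of S100a4 were -0.535 to 0.552 in fl/fl and -1.11 to -0.572 in control mice, also without overlap, and those of Ccr2 overlapped. Such separation held for 46 of 9921 genes (0.464%). Ccr2, S100a4 and Cxcr6 were named after their values were seen. For Ccr2 the unblocked difference was 1.39 ± 0.95, and without ex-Foxp3 fl/fl libraries 1 and 3, which are among those with high NK marker sums, 0.41. For Gcnt1 the value without these libraries was 1.31.

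**Figure D5:**
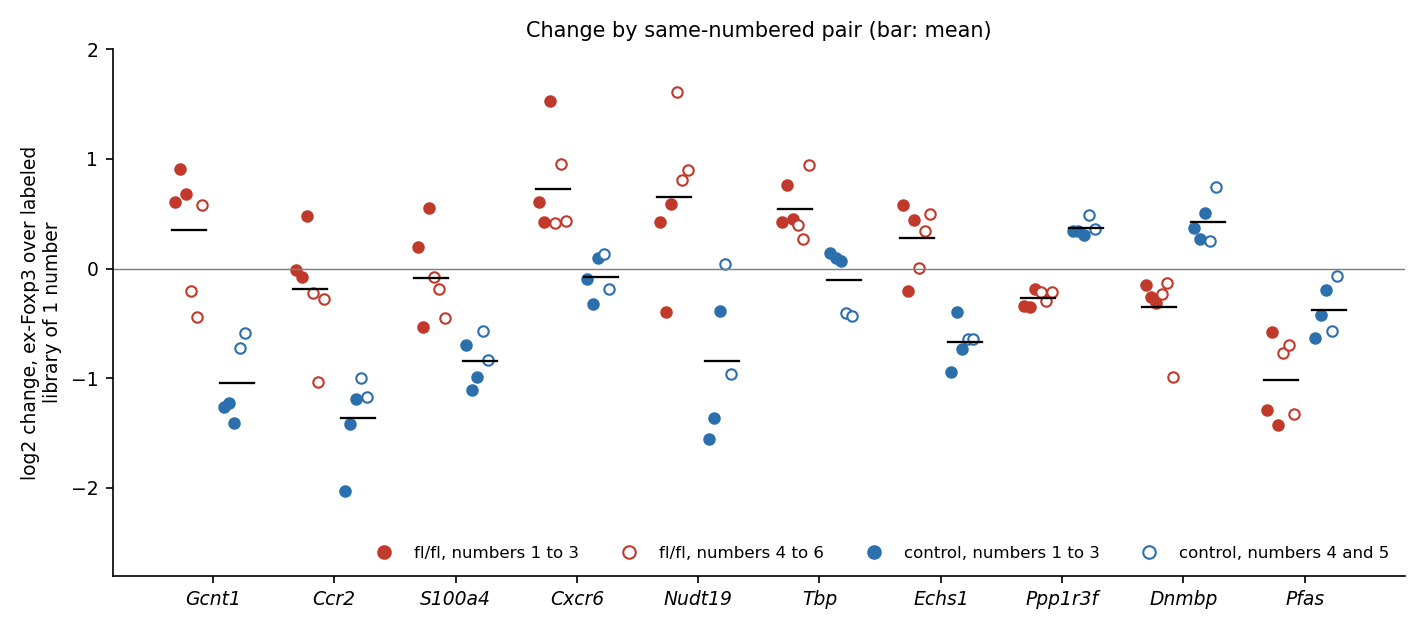
Log2 change between the ex-Foxp3 and labeled library of each number for 10 genes named for their difference, with fl/fl pairs left of control pairs; filled points are numbers 1 to 3, open points numbers 4 and above, and bars are means. Fl/fl pairs lie above control pairs for Gcnt1, S100a4, Cxcr6, Tbp and Echs1 and below them for Ppp1r3f and Dnmbp.

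Whole profiles of single pairs were set against the mean of each genotype. Across the 7245 genes whose mean log2 CPM was 4 or more, the change in 1 fl/fl pair correlated with the mean of the other fl/fl pairs at r = 0.308 to 0.609 (median 0.464) and with the control mean at r = 0.296 to 0.551 (median 0.441), and 5 of 6 fl/fl pairs were closer to their own genotype. The change in 1 control pair correlated with the mean of the other control pairs at r = 0.275 to 0.407 (median 0.367) and with the fl/fl mean at r = 0.337 to 0.489 (median 0.419), and 0 of 5 were closer to their own. For a fl/fl pair both means average 5 pairs. For a control pair the fl/fl mean averages 6 pairs and the mean of the other control pairs 4, so those values are not on equal terms and say nothing on whether control profiles stood apart.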

How the data were processed

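Gene counts of 41 libraries were deposited by the authors as 1 table of raw counts for 19434 genes. Per the labels' protocols, the AllPrep Micro kit yielded the RNA and a SMARTer Stranded kit the libraries. The submitters' processing notes name bcl2fastq 2.17.1.14, TopHat2 2.1.0 and the build mm10 (GRCm38). The counting tool, its strand setting and the annotation are not given in the sources used here. All 13 mitochondrial genes are at 0 counts throughout.

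Counts were fitted with edgeR 4.0.16 (TMM scaling, quasi-likelihood test) in R 4.3.3 over the 33 libraries of 6 groups, which share 1 estimate of spread (coefficient of biological variation 0.215, with the block 0.15). The 9921 genes that passed edgeR's filter on low counts were tested, and p-values were adjusted by Benjamini-Hochberg over all of them at a threshold of 0.05. Intervals are 95% intervals. DESeq2 1.42.0, other filters, left-out libraries and the fit with the number as a block were alternatives, and the splits and left-out numbers within the blocked fit of 22 libraries were chosen after seeing the data. The block is used because same-numbered libraries deviated together: the correlation was over 0.1 in all 11 pairs, and 9 of 11 libraries correlated best with their own number. Libraries of a group differed beyond sampling noise in all 50 pairs (chi-square per degree of freedom 2.57 or more). The scripts were tested on simulated data.

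The members, gene lists and alternatives were chosen with earlier results of these data known. Named genes follow a rule: Foxp3 and Uhrf1; the 6 genes of smallest p for the difference in each direction, given as values; the 8 in each direction called in both genotypes whose smaller change is largest; the 6 genes called in fl/fl alone and in control mice alone with the smallest p for the difference, all at a mean log2 CPM of 4 or more; and from each list the 4 members of smallest p in either genotype, the member of smallest p for the difference and the 2 most abundant members called in neither. Predicted, receptor segment and ribosomal protein genes were left out, and the text names a part of the rest. Dusp4, Gcnt1, Ccr2, S100a4, Cxcr6 and Tlr7 fall outside it and were picked once their values were known.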

Additional observations from a re-analysis of the deposited data

Results flagged for a closer look

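Of 358 sets of values (each named gene or marker sum in 1 group, or its changes over the pairs of 1 genotype), 24 held a library or pair far from the others, which is 6.7% where chance flags about 1 in 20 groups.

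Number 5 of the fl/fl arm stood out most often. Its labeled library had 508 CPM of Foxp3 (next 380) and 276 CPM of Tnfrsf18 (next 202), its ex-Foxp3 library 161 CPM of Tnfrsf4 (next 116) and 281 CPM of Tnfrsf1b (next 218), and its changes were -0.448 for Tnfrsf1b (next -0.832) and 0.123 for Tk1 (next -1.47).

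Among other fl/fl libraries, ex-Foxp3 library 4 had 30.0 CPM of Scfd2 (next 26.5), ex-Foxp3 library 3 had 23.3 CPM of the mitotic spindle gene Tacc3 (next 10.4), and ex-Foxp3 library 1 had 40.6 CPM of Usp20 (next 29.1), with a change of 0.0294 in its pair (next -0.437). Labeled library 3 had 138 CPM of Fam3c (next 186) and a myeloid marker sum of 66.5 CPM (next 25.9). Labeled library 1 had 8.23 CPM of Eomes (next 3.08), and labeled library 6 had 362 CPM of Il18r1 (next 448). The change of Dnmbp in pair 6 was -0.984 (next -0.313).

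In control mice ex-Foxp3 library 1 had 47.2 CPM of Tnfrsf4 (next 101) and 385 CPM of Nrp1 (next 605). Ex-Foxp3 library 5 had 255 CPM of Il18r1 (next 334), with a change of -0.232 in its pair (next 0.0484). Labeled library 4 had 172 CPM of Lrrc32 (next 117) and 222 CPM of Stat4 (next 181). Labeled library 5 had 775 CPM of Cd4 (next 844), labeled library 3 had 60.9 CPM of Als2cl (next 95.1), and labeled library 1 had 1.13 CPM of Klrk1, the others being at 0.

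Among the named genes, the genotypes changed in opposite directions in every pair for Ppp1r3f (difference -0.643) and Dnmbp (difference -0.756), both picked by a small p for this difference. The difference was tested for both and neither passed, with an adjusted p of 1 in edgeR's quasi-likelihood test.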

How the results depend on the processing

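Without any 1 library the count of genes with a called difference stayed at 0, the fl/fl count ran from 242 to 433, the control count from 4 to 44, the shared count from 4 to 37 and the correlation across genes from 0.503 to 0.596. With the number as a replicate block the counts were 893 in fl/fl, 211 in control mice and 168 shared, and without 1 number 516 to 993, 97 to 222 and 87 to 172, with a correlation of 0.488 to 0.557. In the fit of 22 libraries without the block the control count was 80, the shared count 73 and the correlation 0.685. With the block and 22 libraries the counts were 1 for the difference, 1178, 411 and 322, and without 1 number 0 to 4, 811 to 1212, 223 to 471 and 190 to 348, with a correlation of 0.608 to 0.665. DESeq2 gave 86 in control mice and 72 shared. Without a filter on low counts the control count was 23 and the correlation 0.17 over 15161 genes. Without the numbers with Y-linked reads the control and shared counts were both 4 and the correlation 0.469. In numbers 1 to 3 alone the correlation was 0.477, and in numbers 4 and above the fl/fl count was 179 and the correlation 0.257. Without ex-Foxp3 fl/fl libraries 1 and 3 the fl/fl count was 163. The blocked fit of 22 libraries gave 1148, 171 and 145 (fl/fl, control, shared) without the numbers with Y-linked reads, 35 differences, 1175, 497 and 384 in numbers 1 to 3 alone, and 104 in control mice, 78 shared and a correlation of 0.303 in numbers 4 and above. No named value turned its direction while called. The cause of these shifts was not tested, except that splits hold fewer libraries. Depth limits the difference for genes below a mean log2 CPM of 4, where the 95% interval had a median half-width of 1.3.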
